A study of Mus musculus with 16 samples.

Results

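The E2F family and its closest partners were followed in mouse embryonic stem cells (ESCs) as 10 genes, E2f1 to E2f8, Tfdp1 and Rb1, out of 46983 genes in the count table. The family was chosen by a measured value, the very low ratio of polysome to input reads of E2f1, and its members were then listed by name, so that ratio of E2f1 and its difference between siRNAs are given here as descriptions. All 10 genes passed the filter on low counts, which required at least 1 CPM (counts scaled for library size) in at least 10 of the 16 libraries and left 12805 genes for testing. The cells were 46C ESCs, a line made from 129Ola mice that expresses GFP from Sox1, grown on gelatin with leukaemia inhibitory factor. They were transfected for 48 hr with RAM siRNA or with a non-targeting siRNA (control), and before lysis every culture was held briefly in cycloheximide, which stalls elongating ribosomes. Part of each lysate was kept as input, and the polysome fractions of a sucrose gradient run with the rest were pooled. The 4 groups were therefore control input, RAM siRNA input, control polysomes and RAM siRNA polysomes, with 4 replicates each and between 16647523 and 20147833 counts per library. All libraries came from a single line of cycling cells in bulk, in which fewer cells of a kind and less RNA per cell cannot be told apart.

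E2F proteins are transcription factors that switch on the genes for DNA replication at the start of S phase. E2F1, E2F2 and E2F3 are known as the activators, E2F4, E2F5 and E2F6 as repressors, and E2F7 and E2F8 as atypical repressors that bind DNA without a DP partner. DP1, the product of Tfdp1, dimerises with E2F1 to E2F6, and RB, the product of Rb1, binds the activators and silences them until cyclin D and cyclin E kinases phosphorylate it. ESCs are known for a short G1 phase and for RB that is phosphorylated for most of the cycle. RAM, encoded by Ramac, is the activating subunit of the mRNA cap methyltransferase RNMT.

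In order to check the labels, Ramac was examined first. In input, it had between 10.1 and 11.6 CPM in the control libraries and between 2.67 and 3.17 CPM in the RAM siRNA libraries. In polysomes, it had 6.61, 6.89, 8.80 and 14.6 CPM in control replicates 1 to 4 and 0.965, 0.287, 2.25 and 2.61 CPM in RAM siRNA replicates 1 to 4. No RAM siRNA library reached the range of the control libraries in either fraction. All 10 ESC markers were detected in each group. They summed to 5233 ± 192 CPM in control input and, with RAM siRNA, to 4509 ± 270 CPM (SD, n = 4 each), and Tdgf1 was the most abundant. The fibroblast markers summed to 8.79 ± 0.670 CPM in control input, most of it from Thy1 at 7.36 CPM. Of the collagens on that list, Col1a1 averaged 1.10 CPM and Col1a2 0.290 CPM there, and Col3a1 had 0 or 1 read in every library. In RAM siRNA input, Col1a1 was at 115.8% and Col1a2 at 202.0% of control, with overlapping libraries. None of these collagens passed the filter on low counts.

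The libraries did not all stand close together. Input libraries separated by siRNA on the first principal component, which took 41.5% of the variance, whereas in polysomes the first component took 61.5% and separated replicates 1 and 2 from replicates 3 and 4. RAM siRNA polysome replicate 2 lay furthest out, at 63.7 on that axis against 31.4 for the same-numbered control. Control and RAM siRNA libraries of one number departed together from the means of their groups. Each comparison was therefore fitted plainly and then with a term for the replicate number (replicate block). The polysome counts of members, E2F targets and markers are also given without replicate 2, a fit chosen after seeing the data.

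In GRCm38, the genome build of the files, E2f1 (ENSMUSG00000027490) lies on the minus strand of chromosome 2, from 154559407 to 154569892, and has 3154 exonic bases. E2f8 (ENSMUSG00000046179) lies on the minus strand of chromosome 7, from 48866429 to 48881596. Tfdp1 (ENSMUSG00000038482) lies on the plus strand of chromosome 8, from 13338751 to 13378448. No member shares exonic bases with another gene of its own strand. On the opposite strand, 11.2% of the exonic bases of E2f8 are shared with Gm2788, which had 0 or 1 count in every library, and 14.9% of those of Rb1 with Rcbtb2 and Lpar6, which were both expressed. The strand setting of the authors' read counting is not given in the sources used here, so reads of Rb1 and of those genes may be mixed.

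E2F genes are known to be E2F targets themselves, and their promoters were searched for the E2F words TTTCGCGC, TTTGGCGC, TTTCCCGC and TTTGCCGC on both strands. RefSeq (GRCm38.p6) promoter windows, which run from 250 bases before to 50 bases after the start of a gene in RefSeq, were at hand for 7 of the 10 members. A word was found in 4 of the 7, against 2.27% of all 32851 windows and 4.17% of those of tested genes. Members were counted by gene, with a match in any of its windows, and the backgrounds by window. The 4 matches are shown since they mark which members carry the family's own sequence, with the word, or its reverse complement, in capitals and each read 5′ to 3′ on the strand of its gene, which is minus for E2f3 and plus for the others.
E2f2, chr4:136172302-136172323: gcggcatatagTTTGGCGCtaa
E2f3, chr13:29986056-29986085: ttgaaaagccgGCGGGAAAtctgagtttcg
E2f7, chr10:110745230-110745259: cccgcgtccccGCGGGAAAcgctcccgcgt
Tfdp1, chr8:13338697-13338726: gggcgccgaagGCGCGAAAaggcgcgcagg
The windows of E2f6 and E2f8 did not hold these letters, nor did that of E2f1. RefSeq starts E2f1 within the GENCODE gene given above, so its window, from 154569377 to 154569676, lies inside that gene, and the bases before the GENCODE start were not searched. Of the genes with a match, Tfdp1 was lower in RAM siRNA input without the replicate block, E2f2 only with it, and E2f3 and E2f7 in neither fit. Of the searched genes without a match, E2f8 was lower without the block and had the largest fall of the family. E2f1 was lower and E2f6 higher only with it. A match is a description of the sequence and not a site of binding.

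The polysome to input ratio was calculated for each replicate number from the CPM of the same-numbered libraries. Since libraries were scaled to one another by TMM, which takes most genes as alike, a ratio near 1 is that of an ordinary gene and not a share of transcripts on ribosomes. The median of all tested genes in control cells was 1.02, with the 5th percentile at 0.278 and the 95th at 2.36. E2f1, the activator by which the family was chosen, had ratios of 0.187, 0.174, 0.157 and 0.132 in control replicates 1 to 4. Its mean was 0.162 ± 0.0234 (SD, n = 4), and 216 tested genes (1.69%) had a ratio that low or lower. In counts, this was 516, 541, 545 and 534 reads in control input against 94, 89, 83 and 70 in control polysomes. Among the 8929 protein-coding genes with at least 10 CPM in control input, 63 (0.706%) were at or below E2f1. The lowest ratios of all among genes of that level belonged to small structural RNAs, which ribosomes do not translate. They were Gm25395 (0.00377), Gm24265 (0.00622), Rmrp (0.00669), Snora78 (0.0109) and Gm24336 (0.0115), all far under E2f1.

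**Figure D1:**
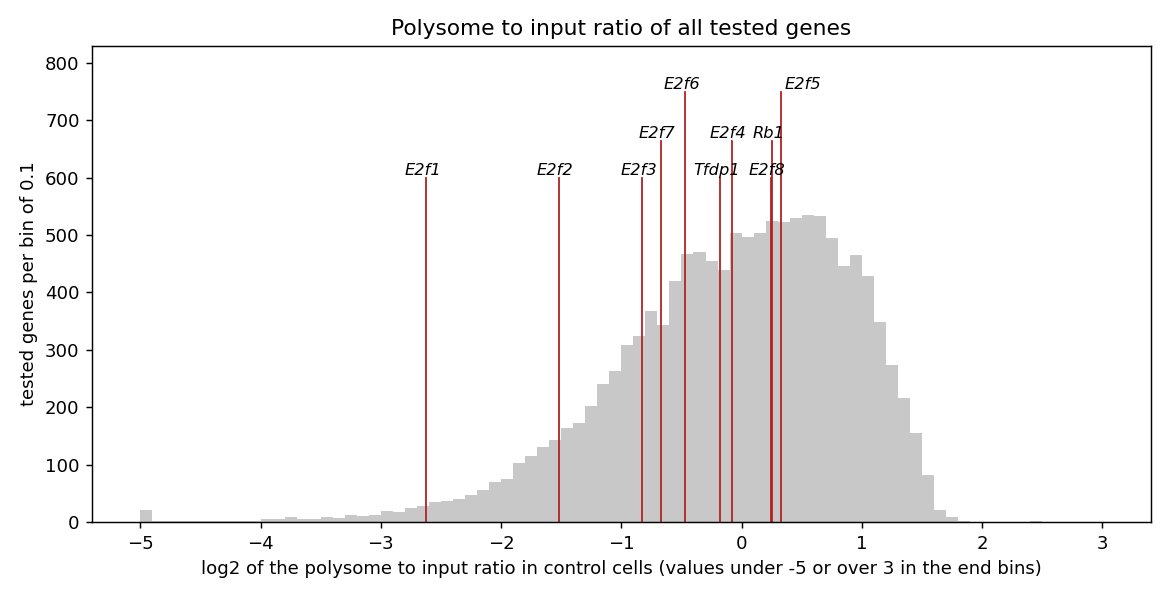
The histogram shows the log2 of the polysome to input ratio in control cells for the tested genes, in bins of 0.1, and the red lines mark the 10 family members. E2f1, at a ratio of 0.162, lies in the left tail, E2f2 (0.348) at its edge, and the other members within the bulk of the genes.

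The other activators had the next lowest ratios of the family. E2f2 had ratios of 0.317, 0.412, 0.294 and 0.370 in control replicates 1 to 4, a mean of 0.348 ± 0.0530, and E2f3 had 0.565, 0.595, 0.555 and 0.542, a mean of 0.564 ± 0.0226 (SD, n = 4 each). The 4 values of E2f1 did not overlap those of E2f2, nor those of E2f2 those of E2f3. E2f7 (0.627 ± 0.142) overlapped E2f3 and was followed by E2f6 (0.724 ± 0.141), Tfdp1 (0.884 ± 0.106) and E2f4 (0.945 ± 0.201), each overlapping its neighbours in this order. E2f8 (1.18 ± 0.147), Rb1 (1.19 ± 0.234) and E2f5 (1.25 ± 0.225) overlapped each other and had means above the median of all genes. E2f1 and E2f2 were thus the 2 members with a ratio under 0.5, as were 16.5% of all tested genes. Single libraries bore on the order, since E2f4 had a ratio of 0.661 in control replicate 2 and between 0.989 and 1.13 in the others, and E2f7 had 0.686 and 0.792 in replicates 1 and 2 and 0.468 and 0.563 in replicates 3 and 4.

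**Figure D2:**
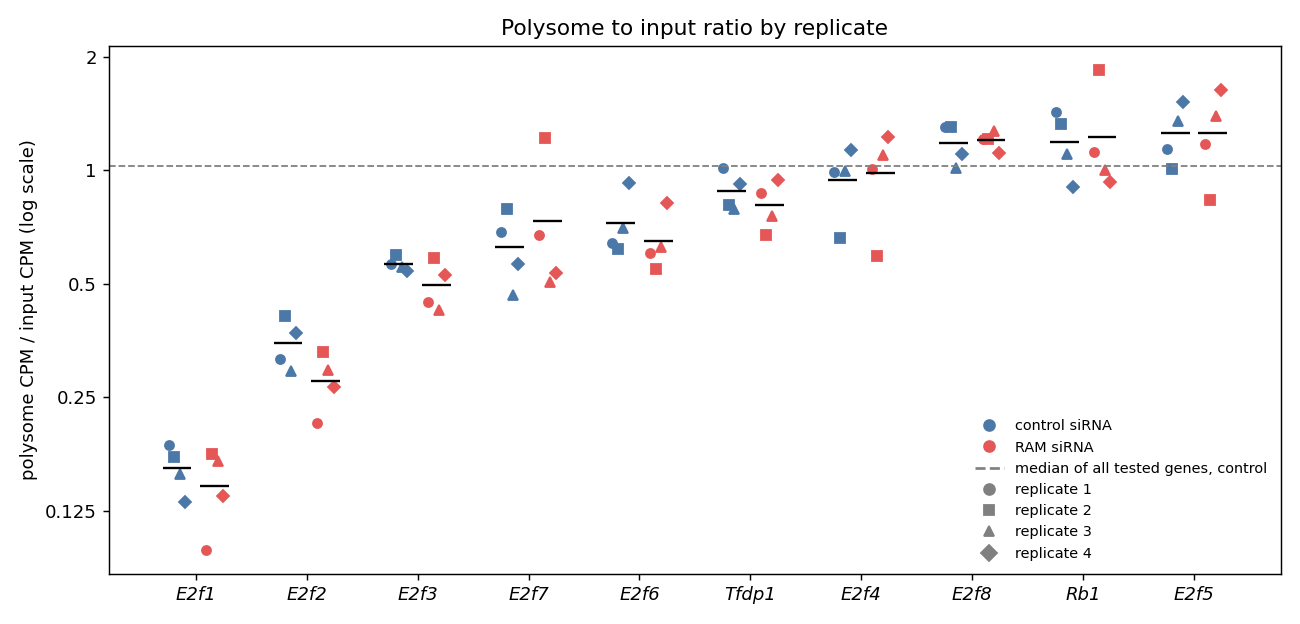
Each point is the polysome CPM divided by the input CPM of the same replicate number, on a log axis, with control siRNA in blue, RAM siRNA in red, a marker shape for each replicate number and a bar at the mean of 4. The dashed line is the median of all tested genes in control cells (1.02), and E2f1, E2f2, E2f3, E2f6 and Tfdp1 lie below it in every replicate and with either siRNA.

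The low ratio was also present in cells with RAM siRNA. There E2f1 had ratios of 0.0987, 0.177, 0.170 and 0.137 in replicates 1 to 4, a mean of 0.145 ± 0.0357 (SD, n = 4), and 170 tested genes (1.33%) were that low. The log2 ratio was 0.18 lower on average than in control cells, but was lower in only 1 of the 4 replicate pairs, and the groups overlapped. Without replicate 1 the difference changed sign, to 0.06. E2f2 and E2f3 had means of 0.277 and 0.497 with RAM siRNA, and E2f3 was lower in 4 of 4 pairs, by 0.19 on the log2 scale with an SD of 0.19 over the pairs. E2f6 was also lower in 4 of 4 pairs, by a mean of 0.15 with an SD of 0.05, the smallest SD of the 10 members. E2f2 had the largest mean difference, 0.34 lower with an SD of 0.25, and was lower in 3 of 4 pairs. The share of tested genes lower in 4 of 4 pairs is not given here, and nothing is read from these counts of pairs. For none of the 10 did the groups of ratios fail to overlap, as they did for 1.6% of tested genes that were lower and 0.281% that were higher. The polysome loading of all genes, tested as the interaction of siRNA and fraction, did not pass an adjusted p of 0.05 for any member in any fit. For E2f1 this rests on the same libraries as the ratio by which it was chosen, and nothing is read from it. Without the replicate block it passed for 0 of 12805 genes (0%, edgeR's quasi-likelihood test, with 100 genes at an unadjusted p under 0.05, and 1 gene called by DESeq2). With a replicate block within each fraction it passed for 2 genes (0.0156%), and the member with the smallest p there was E2f2 (log2 change -0.33, SE 0.13, unadjusted p = 0.0189, adjusted p = 0.955).

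Levels of different genes were compared per kilobase of exon. In control input, the order was led by Tfdp1 at 25.6 ± 1.91 CPM per kb and by E2f4, the main E2F of resting cells, at 23.9 ± 2.70 CPM per kb (SD, n = 4 each), whose libraries overlapped. E2f5 followed at 15.7 ± 1.36 CPM per kb. The activators stood in the middle, with E2f2 at 9.63 ± 0.919 and E2f1 at 9.06 ± 0.504 CPM per kb, which overlapped, and E2f3 at 7.47 ± 0.602 CPM per kb, which overlapped E2f6 at 6.37 ± 0.454. The atypical E2f8 was at 3.05 ± 0.197 CPM per kb. Rb1 and E2f7 were the lowest of the family, at 1.54 ± 0.113 and 1.41 ± 0.131 CPM per kb, and overlapped. In control polysomes E2f1 moved from the fifth to the ninth place, at 1.46 ± 0.147 CPM per kb, and E2f2 from the fourth to the seventh, at 3.34 ± 0.473 CPM per kb, while Tfdp1, E2f4 and E2f5 kept the first 3 places. Levels were also taken per kilobase of the longest annotated transcript, coding or not, instead of all exons. By that measure E2f6 moved up to the fourth place in control input, ahead of E2f1 and E2f2, and E2f7 moved ahead of Rb1.

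**Figure D3:**
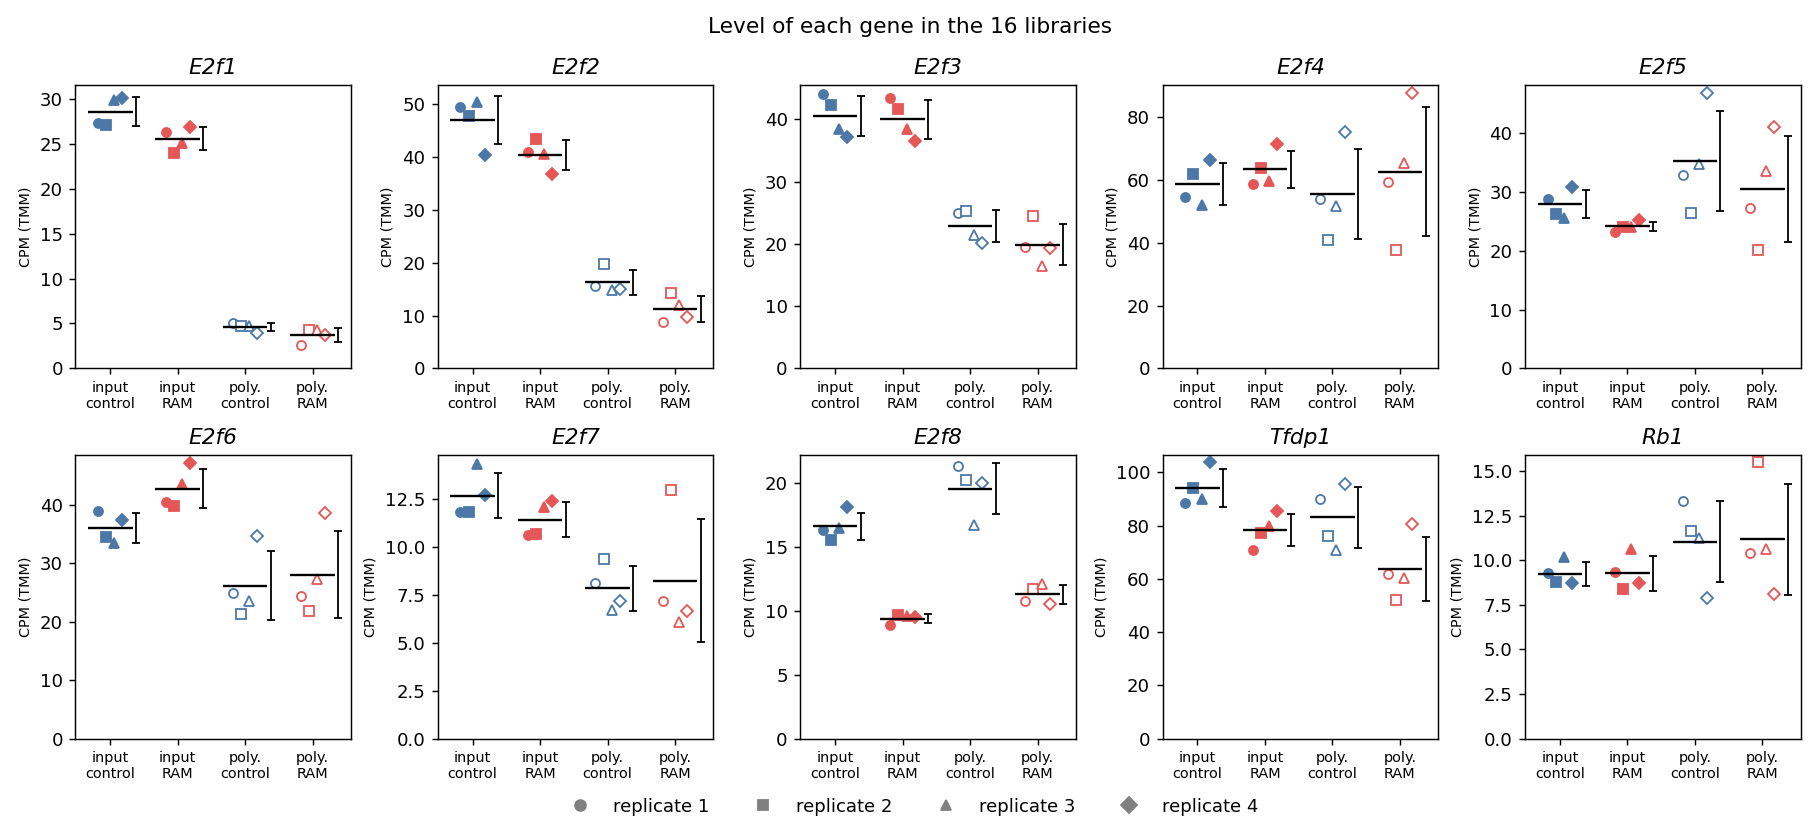
Each panel shows a gene's CPM in the 16 libraries by group, with filled markers for input, open markers for polysomes, a marker shape for each replicate number, a bar at the mean and a whisker of 1 SD to each side. E2f8 has every RAM siRNA library below every control library in both fractions, and E2f1 has its polysome libraries far under its input libraries with either siRNA.

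In order to find what RAM siRNA changed within the family, input libraries were compared first. Of the 10 members, E2f8 and Tfdp1 were lower and none was higher (edgeR's quasi-likelihood test, no replicate block, Benjamini-Hochberg adjusted p under 0.05 over 12805 genes), where 5.94% of the tested genes were lower and 6.95% were higher. With the replicate block, E2f1, E2f2, E2f5, E2f8 and Tfdp1 were lower and E2f6 was higher, where 19% of the tested genes were lower and 20.3% higher. The median log2 fold change of the members was -0.16, against 0.00 for all tested genes. Libraries of both siRNAs did not overlap for E2f1, E2f5, E2f8 and Tfdp1, all lower (as for 8.62% of tested genes), nor for E2f6, which was higher (as for 9.39%).

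E2f8, which restrains the activators during S and G2 phase, showed the largest change of the family. In input it had 16.3, 15.5, 16.5 and 18.1 CPM in control replicates 1 to 4 and 8.84, 9.63, 9.55 and 9.51 CPM in RAM siRNA replicates 1 to 4. The means were 16.60 ± 1.07 and 9.38 ± 0.362 CPM (SD, n = 4 each), so that 56.5% of the control level was left, and the groups were well apart. The log2 fold change was -0.82 (SE 0.09, edgeR adjusted p = 2.40e-04), and E2f8 was lower in 4 of 4 pairs. It kept its call without any single replicate, with an adjusted p of 0.0102 at most, but not in replicates 3 and 4 alone (adjusted p = 0.287), where no gene was called. In polysomes it had 21.3, 20.2, 16.7 and 19.96 CPM in control replicates 1 to 4 and 10.7, 11.7, 12.1 and 10.6 CPM in RAM siRNA replicates 1 to 4. Here, too, the groups did not overlap, as for 4.38% of tested genes that were lower and 2.18% that were higher. The log2 fold change in polysomes was -0.74 (SE 0.15), with an adjusted p of 0.0944 without the replicate block and 0.00133 with it. The polysome to input ratio of E2f8 was 1.18 ± 0.147 with control and 1.202 ± 0.0659 with RAM siRNA (SD, n = 4 each). E2f7, its paralogue, was not past the threshold in input (log2 fold change -0.15, SE 0.10, adjusted p = 0.372). In RAM siRNA polysomes E2f7 had 7.17, 13.01, 6.11 and 6.64 CPM in replicates 1 to 4 against between 6.71 and 9.37 CPM in control, and replicate 2 alone lay above the control range.

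Tfdp1, whose product is the common DP partner, had 88.4, 94.2, 89.8 and 103.9 CPM in control input replicates 1 to 4 and 71.0, 77.4, 79.7 and 85.6 CPM in RAM siRNA input replicates 1 to 4. The RAM siRNA libraries kept 83.4% of the control level and lay below all control libraries. The log2 fold change was -0.27 (SE 0.08, adjusted p = 0.0421 without the replicate block and 7.72e-05 with it). Without the block this call was lost without replicate 1 (adjusted p = 0.197), replicate 2 (0.209) or replicate 3 (0.0714), and with the block it was kept without each. In polysomes Tfdp1 had means of 83.2 ± 11.4 and 63.7 ± 12.03 CPM (SD, n = 4 each) and the groups overlapped. Its log2 fold change there was -0.33 (SE 0.18, adjusted p = 0.667, and 0.0510 with the replicate block).

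Of the activators, E2f1 had 27.3, 27.1, 29.8 and 30.1 CPM in control input replicates 1 to 4 and 26.3, 24.0, 25.1 and 26.9 CPM in RAM siRNA input replicates 1 to 4. All RAM siRNA libraries lay below the control libraries by a small step, at 89.4% of its mean. On the log2 scale the fold change was -0.16 (SE 0.07, adjusted p = 0.176 without the replicate block and 0.0341 with it), and with the block the call was lost without replicate 2 (0.0988), replicate 3 (0.154) or replicate 4 (0.0634). E2f2, close to E2f1 in function, had 49.4, 47.8, 50.4 and 40.5 CPM in control input replicates 1 to 4 and 40.9, 43.5, 40.5 and 36.7 CPM in RAM siRNA input replicates 1 to 4. It was lower in 4 of 4 pairs although control replicate 4 reached into the RAM siRNA range, and its log2 fold change was -0.22 (SE 0.09, adjusted p = 0.114, and 0.00197 with the replicate block). Without replicate 4 it also passed without the block (adjusted p = 0.0289). E2f3 had means of 40.5 ± 3.27 and 40.0 ± 3.09 CPM (SD, n = 4 each) and a log2 fold change of -0.02 (SE 0.08, adjusted p = 0.895).

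In polysomes, E2f2 had 15.6, 19.7, 14.8 and 15.0 CPM in control replicates 1 to 4 and 8.74, 14.3, 12.02 and 9.79 CPM in RAM siRNA replicates 1 to 4, and the groups did not overlap. Its log2 fold change was -0.49 (SE 0.20, adjusted p = 0.494 without the replicate block) and -0.50 with it (SE 0.13, adjusted p = 0.0157). That call was lost without replicate 1 (adjusted p = 0.140) or replicate 4 (0.0668). E2f1 had 5.09, 4.71, 4.68 and 3.98 CPM in control polysomes and 2.59, 4.24, 4.26 and 3.68 CPM in RAM siRNA polysomes, replicates 1 to 4, which overlapped. From 43 to 94 reads stood behind these values, and the log2 fold change of -0.27 (SE 0.21) had an adjusted p of 0.858 without and 0.319 with the replicate block.

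Of the 10 members, none was past the threshold in polysomes without the replicate block, where 0.0234% of tested genes were called (3 genes, which were lower, with 0% higher, by edgeR's quasi-likelihood test). At an unadjusted p under 0.05 there were 2 members, E2f2 and E2f8, among 1152 genes. With the block, E2f2 and E2f8 were lower and none was higher, where 4.97% of tested genes were lower and 9.68% higher. Without replicate 2 and with the block, a fit chosen after seeing the data, 4558 genes were called, 14.3% of tested genes lower and 21.3% higher, and among the members E2f2, E2f8 and Tfdp1 were lower and E2f4 was higher.

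Of E2f4, E2f5, E2f6 and Rb1, none passed in input without the replicate block, and E2f5 and E2f6 passed with it. E2f6, a repressor that acts without pocket proteins, had 39.0, 34.5, 33.4 and 37.4 CPM in control input replicates 1 to 4 and 40.6, 39.8, 43.6 and 47.2 CPM in RAM siRNA input replicates 1 to 4. It was the one member whose RAM siRNA libraries all lay above the control libraries, with a log2 fold change of 0.24 (SE 0.08, adjusted p = 0.0634, and 0.00211 with the replicate block). E2f5 averaged 27.9 ± 2.43 CPM in control input and, with RAM siRNA, 24.1 ± 0.808 CPM (SD, n = 4 each), and its libraries did not overlap. Its log2 fold change was -0.21 (SE 0.08, adjusted p = 0.104, and 0.0113 with the replicate block), and the call with the block was lost without replicate 1 (0.0886) or replicate 4 (0.0503). E2f4 had 58.6 ± 6.62 and 63.3 ± 5.84 CPM (SD, n = 4 each), which overlapped, with a log2 fold change of 0.11 (SE 0.09, adjusted p = 0.483, and 0.0667 with the replicate block). Rb1, the pocket protein of the list, averaged 9.25 ± 0.679 CPM in control input and, with RAM siRNA, 9.27 ± 0.983 CPM (SD, n = 4 each), with a log2 fold change of 0.00 (SE 0.11, adjusted p = 0.991). In polysomes the libraries of E2f4, E2f5, E2f6 and Rb1 overlapped between siRNAs, and E2f4 differed widely between replicates with either siRNA. It had 53.9, 40.8, 51.8 and 75.2 CPM in control polysomes and 59.3, 37.7, 65.3 and 87.7 CPM in RAM siRNA polysomes, replicates 1 to 4, lowest in replicate 2 and highest in replicate 4 with both.

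**Figure D4:**
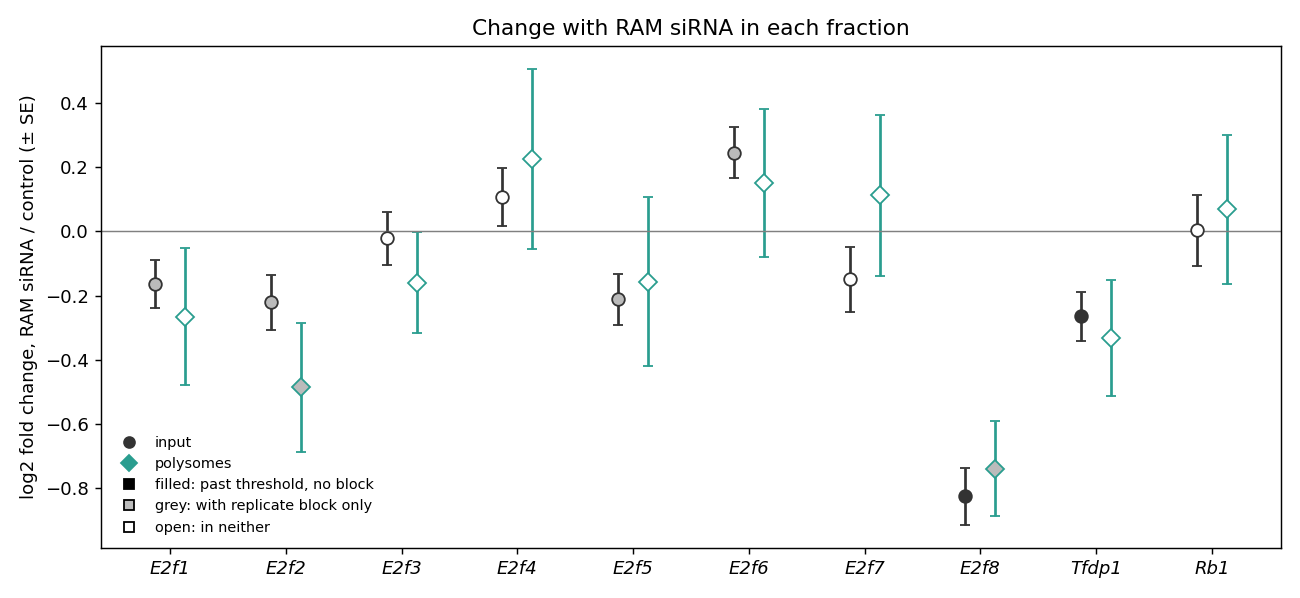
Points give the log2 fold change of each gene with RAM siRNA in input (circles) and in polysomes (diamonds) from the fit without the replicate block, and whiskers 1 SE to each side. Black marks genes past an adjusted p of 0.05 without the block, which are E2f8 and Tfdp1 in input, grey those past it only with the block, and open those past it in neither.

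The genes that work with the family were then counted from lists chosen with earlier results of these data known. Of the 3 other DP and pocket genes, Rbl1, which encodes the pocket protein p107, was lower in input (log2 fold change -0.42, SE 0.07, edgeR adjusted p = 0.00263 with no replicate block), and Tfdp2 and Rbl2 were not past the threshold. Rbl1 had 74.2, 77.6, 76.5 and 71.7 CPM in control input replicates 1 to 4 and 56.8, 56.5, 59.9 and 51.1 CPM in RAM siRNA input replicates 1 to 4, and the groups did not overlap. Of the 6 subunits of the MuvB and MYBL2 complex, which with p130 or p107 forms the DREAM repressor and with MYBL2 an activator, all had a log2 fold change under 0, with a median of -0.13, and Lin52 was past the threshold (-0.28, SE 0.08, adjusted p = 0.0438). This was 16.7% of the list against 5.94% of tested genes lower. With the replicate block 4 of the 6 were lower and none was higher, against 19% of tested genes lower and 20.3% higher.

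Upstream of RB, 11 of 13 cyclin D, CDK and CDK inhibitor genes passed the filter, and Cdkn2b and Cdkn2c did not. One was lower and one was higher, 9.09% of the list each against 5.94% and 6.95% of tested genes, and both were D cyclins, the kinase partners that begin RB phosphorylation. Ccnd3 averaged 211.2 ± 18.5 CPM in control input and, with RAM siRNA, 109.4 ± 3.50 CPM (SD, n = 4 each), with a log2 fold change of -0.95 (SE 0.08, adjusted p = 4.61e-05). Ccnd1 went the other way, at 12.1 ± 3.58 CPM with control and 19.8 ± 4.82 CPM with RAM siRNA (SD, n = 4 each), with a log2 fold change of 0.71 (SE 0.20, adjusted p = 0.0334). With the replicate block 4 of the 11 were lower and 4 were higher, against 19% and 20.3% of tested genes, and the median of the list was -0.01.

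Of 42 known E2F targets, which include the MCM helicase, origin, polymerase and nucleotide synthesis genes of S phase, all passed the filter. In RAM siRNA input 36 had a log2 fold change under 0 and 6 over 0, with a median of -0.14 against 0.00 for all tested genes. Without the replicate block 7 were lower and none was higher, 16.7% of the list against 5.94% of tested genes, and with the block 27 were lower and 2 higher, 64.3% of the list lower against 19% of tested genes. Ccne1, the G1/S cyclin and an E2F target, had 293.8, 324.5, 352.0 and 313.2 CPM in control replicates 1 to 4 and 123.6, 132.9, 169.6 and 147.8 CPM in RAM siRNA replicates 1 to 4, far apart (log2 fold change -1.16, SE 0.10, adjusted p = 6.13e-05). Rrm2 (-0.44, adjusted p = 0.00659) and Rrm1 (-0.40, adjusted p = 0.00930), the subunits of ribonucleotide reductase, and Uhrf1 (-0.37, adjusted p = 0.0133), which guides maintenance DNA methylation, had the next smallest p-values. In polysomes no target was past the threshold without the block, where 0.0234% of tested genes were called. With it 6 were lower and none higher, 14.3% of the list lower against 4.97% of tested genes lower and 9.68% higher. With the block and without replicate 2, a fit chosen after seeing the data, 29 were lower and 1 higher, 69.0% of the list lower against 14.3% of tested genes. Replicate 2 is one in which many targets were higher with RAM siRNA, so nothing is read from the larger count. Mcm4, picked for its values once seen, had 194.8, 433.1, 108.0 and 171.5 CPM in RAM siRNA polysomes, replicates 1 to 4. In control polysomes it had 266.3, 351.8, 143.8 and 205.0 CPM. Target counts without replicates 1, 3 or 4 are not given here.

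The polysome to input ratio of the same lists was then described. The E2F targets had a median ratio of 1.26 in control cells, the upstream genes 1.18, the MuvB list 0.884 and the other DP and pocket genes 0.691, against 0.804 for the 10 members and 1.02 for all tested genes. None of the genes of these 4 lists was at or below E2f1. Under 0.5 were 3 of the 42 targets, 2 of the 11 upstream genes and 1 of the 6 MuvB genes. None of the 3 other DP and pocket genes was under 0.5, as were 16.5% of all tested genes. Brca1 (0.262), Cdk6 (0.268), Lin52 (0.320) and Dnmt1 (0.328) had lower means than E2f2. Brca1, Cdk6 and Dnmt1 were picked for these values once seen. The promoter words above were found in 16 of the 34 targets with a RefSeq window (47.1%), against 4.17% of the 12447 windows of tested genes. Targets were counted by gene, with a match in any of its windows, so the 2 measures are not alike.

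**Figure D5:**
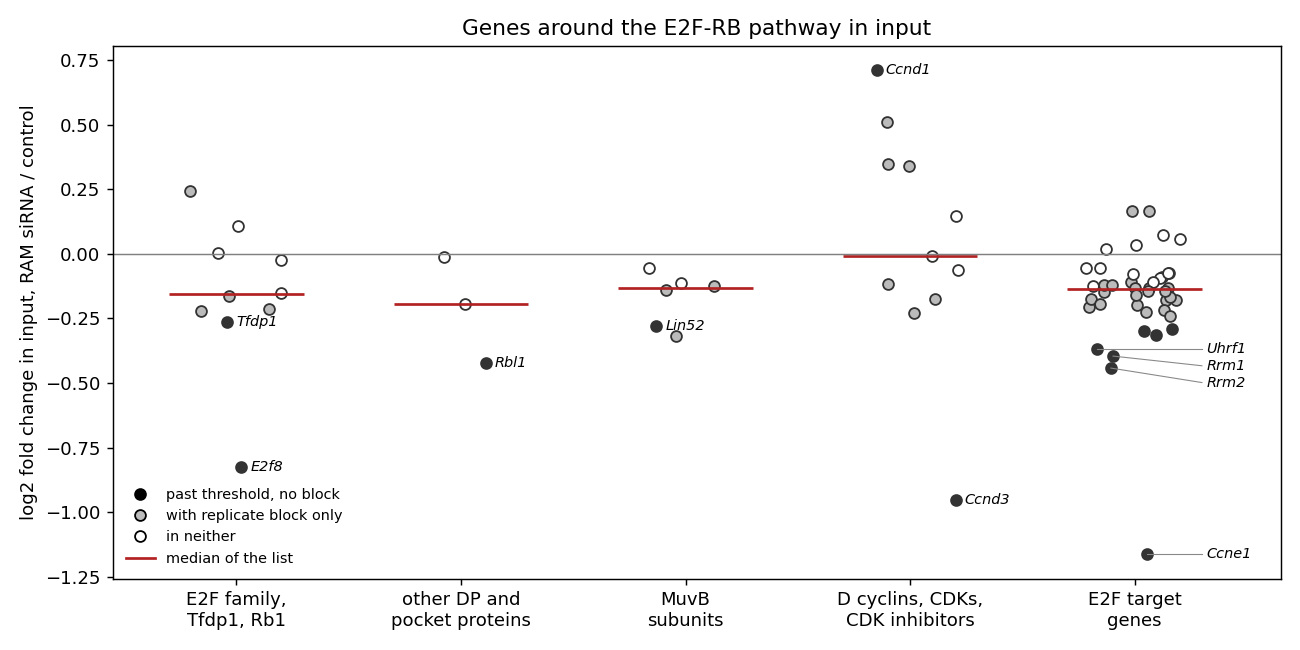
Each point is a gene's log2 fold change in input with RAM siRNA, black where past an adjusted p of 0.05 without the replicate block, grey where only with it and open where in neither, and red bars are list medians. Of the E2F targets 36 of 42 lie under 0, and Ccne1 (-1.16) and Ccnd3 (-0.95) lie lowest.

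Markers of the ESC state and of other cell types were counted in the same libraries. Of the 10 ESC markers, 4 were lower in RAM siRNA input and none was higher (Fgf4, Dppa5a, Nanog and Esrrb), against 5.94% of tested genes lower and 6.95% higher, and all 10 had a log2 fold change under 0. With the replicate block 9 were lower, against 19% of tested genes lower and 20.3% higher. In polysomes no ESC marker was called without or with the block, where 4.97% of tested genes were lower with it. With the block and without replicate 2, 2 were lower and none was higher, against 14.3% of tested genes lower and 21.3% higher. The primitive endoderm markers summed to 11.99 ± 0.474 CPM in control input and, with RAM siRNA, to 13.7 ± 1.32 CPM (SD, n = 4 each), and of the 4 tested, Gata6 and Dab2 were higher, against 6.95% of tested genes. Sox7 of the same list, named like Pax6 and Nes after its values were seen, had 58.4% of its control level in input and 51.5% in polysomes, with no overlap in either, and was lower in both with the replicate block only, in polysomes also without replicate 2. Neural markers summed to 79.2 ± 5.55 and 86.2 ± 6.50 CPM, and fibroblast markers to 8.79 ± 0.670 and 10.4 ± 0.920 CPM (SD, n = 4 each), and without the replicate block none of these was past the threshold, Thy1 being the one fibroblast marker tested. With the block, Nes was higher in input, at 134.6% of control. With it Pax6 was lower, at 70.9% in input and 50.7% in polysomes (there also without replicate 2), so the neural sum joined genes of both directions. Sox1 was at 105.3% in input and at 74.2% in polysomes, there with no overlap, and Tubb3 at 102.3% and 98.2%. With the block and without replicate 2, 2 of the 4 tested neural markers were lower in polysomes and none was higher, against 14.3% of tested genes lower. The part of all these markers in the changes of the E2F family was not tested.

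The transcripts of the members were described from the longest coding transcript of each gene in GENCODE vM21. E2f1 had a 5′ UTR of 543 bases with 70.7% G and C, the longest 5′ UTR of the 10, against a median of 187 bases over 12125 tested genes. That of E2f8 had 490 bases. The 5′ UTRs of E2f2, E2f4, E2f5, E2f6 and Rb1 were richer in G and C than that of E2f1, at 73.1% to 79.5%. E2f2 and E2f3 had 3′ UTRs of 3020 and 3328 bases, the longest of the 10, and that of E2f1 had 1054 bases. The G and C content of the 3′ UTR ran from 33.7% in E2f8 to 53.9% in E2f1.

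Genes lower in RAM siRNA input held the letters ACTATC in their 3′ UTR more often than all genes, and genes that were higher held TGCTCAA more often than all genes, a pattern already known from these data when the members were chosen. ACTATC was in 16.04% of 12067 genes with a 3′ UTR and in 38.6% of those lower without the replicate block, and TGCTCAA in 9.44% of all and in 17.1% of those higher. Among the members, E2f2 and E2f3 held ACTATC, and E2f7 and E2f8 held TGCTCAA. These words differ in length, and at equal length ACTATCA was in none of the members and TGCTCA, which 39.3% of all genes held, in E2f2, E2f4, E2f7, E2f8 and Rb1. The 3 stretches below are shown since E2f2 and E2f8 were the members lower in both fractions with the replicate block and E2f3 was not, with the word, or its first 6 letters, in capitals and read 5′ to 3′ in the transcript.
E2f2: cttgaggggACTATCcagtttgct
E2f3: aaggtgcagACTATCttcctctct
E2f8: cacagcaccTGCTCAaactttttg
The part of these words in the changes of the members was not tested. E2f8 was lower, yet its word TGCTCAA was more common in genes that were higher (17.1%) and was in 6.38% of those lower. E2f7, which is not shown, held that word too and was not past the threshold in input. E2f2 and E2f3, which held ACTATC, have the longest 3′ UTRs of the 10. Tfdp1, E2f1, E2f5 and E2f6 held neither ACTATC nor TGCTCA.

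The genes whose level over the 16 libraries was most like that of E2f1 were found by Pearson r of log2 CPM, as a description. They were Cox17 (r = 0.996), Wasf3 (0.994), Arrdc3 (0.993), Plekha8 (0.991) and Atxn7l3 (0.991). All 5 had a polysome to input ratio under 0.5 in control cells, between 0.0692 for Cox17 and 0.418 for Arrdc3, and only Arrdc3 was also among the 5 most like E2f1 by Spearman rho. Within the family, E2f2 (0.976) and E2f3 (0.951) were the most like E2f1, and E2f5 (-0.46) the least. The points fall into input and polysome libraries, so the measure follows the gap between the fractions.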

How the data were processed

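Cytoplasmic input and pooled polysome RNA of 46C ESCs with control or RAM siRNA was sequenced in 16 stranded, ribosomal RNA depleted libraries, 4 replicates in each of 4 groups. The deposited values were raw read counts per gene, which the authors made with STAR 2.5.1b on GRCm38 (mm10) and htseq-count. The annotation release and the strand and overlap settings of the counting are not given in the sources used here. No sample was pooled and 0 columns belonged to other samples. Library totals ran from 16647523 to 20147833 counts, so genes near 5 CPM rest on under 100 reads and their values carry counting error.

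Genes with at least 1 CPM in at least 10 libraries (12805) were tested with edgeR 4.0.16 (TMM scaling, quasi-likelihood test, Benjamini-Hochberg adjustment over all 12805) in R 4.3.3, within input, within polysomes and, for loading, as the interaction over 16 libraries. DESeq2 1.42.0, limma 3.58.1 (voom), other scalings and filters, a fit of all libraries and leaving out replicates were alternatives. Ratios divided the TMM-scaled CPM of same-numbered libraries, and log2 CPM for likeness used a pseudocount of 0.5. The replicate numbers came from the sample labels and the study's methods describe separate occasions. Same-numbered deviations correlated in every pair, with r from 0.315 to 0.639 in input and from 0.541 to 0.897 in polysomes, so the numbers were taken to pair the samples. The scripts were checked on simulated counts.

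The members and gene lists were chosen with earlier results of these data known. Named were all members, Ramac, up to 4 called genes of each list with the smallest p (or the 2 most abundant where none was called), the 5 genes most like E2f1 and the 5 with the lowest ratio at 10 CPM or more. Among the markers, Tdgf1, Col1a2, Col3a1, Sox1, Sox7 and Pax6 were named outside this rule, with their values known. Genes named after their values were seen are marked as such. Symbols and positions came from GENCODE vM21, which matched 46488 of 46983 genes. The values of 1 marker gene are not reported here.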

Additional observations from a re-analysis of the deposited data

Results flagged for a closer look

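Of 60 groups of 4 libraries tested for a library far from the other 3, 3 were found, where chance gives about 1 in 20. E2f2 in control polysomes had 19.7 CPM in replicate 2 and between 14.8 and 15.6 CPM in the others. E2f7 in RAM siRNA polysomes had 13.01 CPM in replicate 2 and between 6.11 and 7.17 CPM in the others. E2f8 in RAM siRNA input had 8.84 CPM in replicate 1 and between 9.51 and 9.63 CPM in the others. RAM siRNA polysome replicate 2 also lay furthest out on the first principal component, at 63.7. Among control polysomes, replicate 4 (-32.8) lay slightly further out than replicate 2 (31.4). The cause was not tested.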

How the results depend on the processing

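In input the replicate block gave 5028 genes, with 5 members lower and 1 higher, against 1651 genes without it. Replicates 1 and 2 alone gave 2629 genes, all 16 libraries in one fit 186 genes and 1 member lower, and replicates 3 and 4 alone 0 genes and 0 members. Without each replicate in turn there were 341 to 2040 genes and 1 to 3 members lower. With the block and without replicates 1, 2, 3 and 4 in turn there were 3579, 4026, 4231 and 4967 genes, with 4, 4, 4 and 3 members lower and 1 higher. In polysomes, where 3 genes were called without the block, the block gave 1875 genes and 2 members lower, DESeq2 300 genes and 1 member, all 16 libraries 453 genes and 1 member, no filter 39 genes and 1 CPM in 4 libraries 18 genes. Replicates 1 and 2 alone, and 3 and 4 alone, gave 0 genes, and leaving out each replicate gave 0 to 1. With the block and without replicates 1, 2, 3 and 4 in turn there were 806, 4558, 1197 and 918 genes, with 1, 3, 2 and 1 members lower and 0, 1, 0 and 0 higher. For loading, DESeq2 called 1 gene and a replicate block within each fraction 2 genes, none of them a member. The E2f1 log2 ratio difference ran from -0.282 to 0.0618 without each replicate. E2f3 had a ratio of 0.518 without scaling. Per kilobase of the longest transcript, control input levels were 33.8 CPM for Tfdp1, 29.4 for E2f4, 10.4 for E2f1, 11.95 for E2f6, 4.50 for E2f8, 1.99 for Rb1 and 2.32 for E2f7.

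These log2 fold changes changed sign, none of them past the threshold. Rb1 in input was -0.0193 with library size alone, -0.0233 with no filter, -0.00848 with 1 CPM in 4 libraries and -0.0266 in replicates 1 and 2, ran from -0.0220 to 0.0206 without each replicate, and with the block was -0.000342 without replicate 1 and -0.0228 without replicate 3. In polysomes Rb1 was -0.00157 with library size alone, ran from -0.0884 to 0.191 without each replicate, and was -0.0822 with the block without replicate 2. E2f7 ran from -0.0846 to 0.179, and was -0.0837 with the block without replicate 2 and -0.0689 in replicates 3 and 4. For loading, E2f5 was -0.0118 with the block, -0.0215 with limma-voom, -0.0507 in replicates 1 and 2, -0.0165 with a block within each fraction and -0.0185 with a block by culture. Without each replicate in turn, loading ran from -0.261 to 0.0613 for E2f1, from -0.0201 to 0.0683 for E2f5, from -0.0658 to 0.0930 for E2f8 and from -0.177 to 0.150 for Rb1. It was 0.0821 for E2f1 and -0.0602 for Rb1 in replicates 3 and 4, and -0.0469 for E2f8 in replicates 1 and 2. The cause of these changes was not tested.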
